A study of Rattus norvegicus with 12 samples.

Results

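The genes described here carry fatty acids into the cardiomyocyte, activate them, pass them into the mitochondrion and oxidise them, together with the nuclear regulators that control this programme. A list of 30 gene symbols was matched to the gene names of the count table. Of these, 28 had a row among the 34599 rows of the table, and all 28 passed the filter on low counts that left 15101 genes for testing. Of the other 2 symbols, Cd36 and Eci2, no row carried the name, so they were not analysed here. The rule for the list uses the function of the genes and no measured value, and the list was drawn up with earlier results of these data known.

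RNA was sequenced from the left ventricle of male Sprague-Dawley rats, with 4 rats in each of 3 groups. Sham rats had the chest opened and no ligation. MI rats had the left anterior descending coronary artery ligated and received no patch. iCarP+/Light+ rats had the same ligation, and the unicellular green alga Chlorella was injected into the infarcted wall, a light-scattering patch (iCarP) was glued over it with a hydrogel adhesive, and the patch was lit so that the algae could make oxygen. This group differs from MI in Chlorella, iCarP, glue and illumination at once, and what each contributed cannot be told apart here. The labels give the left ventricle as the source of every library, taken at day 1 after surgery, and describe the tissue as the infarct region, which the Sham rats do not have. Where the study's methods describe the infarction experiment they give no age, and where they describe the rats of the light delivery test they give 6 weeks. The rats are called by the numbers in their labels, and the values are listed in that order: Sham rats 1, 2, 3 and 5, MI rats 1, 3, 4 and 5, and iCarP+/Light+ rats 1, 2, 4 and 5.

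A resting heart takes most of its energy from long-chain fatty acids. Lipoprotein lipase frees them from circulating triglyceride at the vessel wall, transporters and fatty acid binding protein carry them into and through the cell, acyl-CoA synthetase activates them, and the carnitine palmitoyltransferases move them across the mitochondrial membranes. Beta-oxidation then shortens the chain in repeated rounds of dehydrogenation, hydration, a further dehydrogenation and thiolysis, each round using oxygen indirectly through the respiratory chain. PPARα and its coactivator PGC-1α switch on many of these genes, by binding of PPARα with RXR to a repeat of AGGTCA with 1 base between the copies.

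RefSeq promoters, running from 250 bases before to 50 bases after the annotated start (GRCr8 build), were at hand for 25 of the 30 symbols. Acaa2, Acadl, Cpt1b, Decr1 and Lpl had no entry. The 250 bases before the start of 3 members are shown. Angptl4 was chosen as the only member called higher in MI than in Sham in the main fit. Acadvl was chosen for its promoter, which holds the closest match to the PPAR repeat among the member promoters. Hadha was chosen because in RefSeq it starts 301 bases from Hadhb on the opposite strand, so that both subunits of the trifunctional protein share this stretch. Capitals in Angptl4 mark ACGTG, the core of the element bound by hypoxia-inducible factor, read here on the minus strand of the promoter. Capitals in Acadvl mark the PPAR repeat with 1 mismatch. The Hadha stretch held none of the motifs searched.
Angptl4 (chr7:15258682-15258931, minus strand): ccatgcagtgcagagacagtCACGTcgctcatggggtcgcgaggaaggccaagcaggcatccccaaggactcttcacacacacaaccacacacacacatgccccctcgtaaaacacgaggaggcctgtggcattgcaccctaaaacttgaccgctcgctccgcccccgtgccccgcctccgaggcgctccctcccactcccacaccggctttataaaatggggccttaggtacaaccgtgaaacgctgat
Acadvl (chr10:55236706-55236955, minus strand): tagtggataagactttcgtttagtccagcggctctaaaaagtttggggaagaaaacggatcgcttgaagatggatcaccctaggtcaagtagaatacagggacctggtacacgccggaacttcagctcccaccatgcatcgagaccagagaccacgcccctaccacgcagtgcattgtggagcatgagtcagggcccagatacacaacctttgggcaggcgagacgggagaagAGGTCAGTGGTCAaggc
Hadha (chr6:31907551-31907800, plus strand): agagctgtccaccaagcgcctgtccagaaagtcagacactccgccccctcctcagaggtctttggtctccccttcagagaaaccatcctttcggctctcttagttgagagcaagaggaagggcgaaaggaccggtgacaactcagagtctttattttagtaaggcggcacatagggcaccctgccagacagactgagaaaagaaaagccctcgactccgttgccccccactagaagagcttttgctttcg

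The PPAR repeat, with up to 2 mismatches over its 12 repeat bases on either strand, was found in 4 of the 25 member promoters and in 3.77% of 33469 promoters in RefSeq. Its first base lay at -17 in Acadvl, -155 in Echs1, -154 in Etfa and -57 in Ucp3, where -1 is the base just before the start. The estrogen-related receptor element TCAAGGTCA, which contains 1 copy of the same AGGTCA, was in 0 of the 25 and in 0.433% of all promoters. ACGTG, on either strand, was in 5 of the 25 (Angptl4, Cd36, Etfa, Etfdh and Ucp3) and in 19.3% of all promoters. These matches describe letters in a short window and say nothing of binding.

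The libraries held 14064414 to 17136958 counts, and 3 counts corresponded to 0.144 to 0.228 CPM (read counts per 1000000 after TMM scaling, the unit of the levels below). The cardiac source of the tissue was visible in 12 cardiomyocyte markers (Myh6, Tnnt2, Mb and 9 others), whose summed level was 66568 to 71719 CPM in Sham, 4462 to 9118 CPM in MI and 3951 to 10538 CPM in iCarP+/Light+. All 12 were lower in MI than in Sham. The summed level of 10 leukocyte markers was 245 to 427 CPM in Sham, 4177 to 7275 CPM in MI and 6385 to 11470 CPM in iCarP+/Light+, and all 10 were higher in MI. The 7 endothelial and 7 fibroblast markers with rows summed to 1613 to 1793 and 8460 to 10601 CPM in Sham, to 688 to 1087 and 2424 to 2802 CPM in MI, and to 918 to 1034 and 1263 to 2831 CPM in iCarP+/Light+, where rat 5 had the lowest fibroblast sum and the other 3 rats were at 2237 CPM or above. The summed white adipocyte markers were at 9.18 to 17.7 CPM in Sham, 12.7 to 45.5 CPM in MI and 25.5 to 45.9 CPM in iCarP+/Light+, nearly all of it from Cfd (complement factor D), which was higher in MI (log2 fold change 0.94, edgeR adjusted p = 0.0488) and in iCarP+/Light+ (1.71, edgeR adjusted p = 0.00181) than in Sham, while Plin1 was at most at 0.0958 CPM and Adipoq at most at 0.455 CPM. The summed brown adipocyte markers, nearly all from the lipid droplet gene Cidea, were at 25.5 to 64.5 CPM in Sham, 1.63 to 7.66 CPM in MI and 4.85 to 7.55 CPM in iCarP+/Light+, with a log2 fold change of Cidea in MI of -3.52 (edgeR adjusted p = 6.00e-06), and Ucp1 was at 0 in every library. The 6 skeletal muscle markers with rows summed to 4.21 to 9.85 CPM. The 6 red blood cell markers with rows summed to 7863 to 10568 CPM in Sham, 2503 to 6928 CPM in MI and 6183 to 17465 CPM in iCarP+/Light+. No library was a copy of another of its own group. In bulk tissue fewer cells of a type and less RNA per cell cannot be told apart, and this holds for every result below. Counts from the mitochondrial genome made up 22.8 to 28.9% of the Sham libraries, 8.52 to 11.5% of the MI libraries and 7.14 to 14.2% of the iCarP+/Light+ libraries, and they were highest in MI rat 3 and iCarP+/Light+ rat 1 and lowest in MI rat 1 and iCarP+/Light+ rat 5. With the mitochondrial genome left out, 25 members were lower and 1 higher in either infarcted group against Sham, as with it. The part of the cell markers in the member results was not tested.

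**Figure D1:**
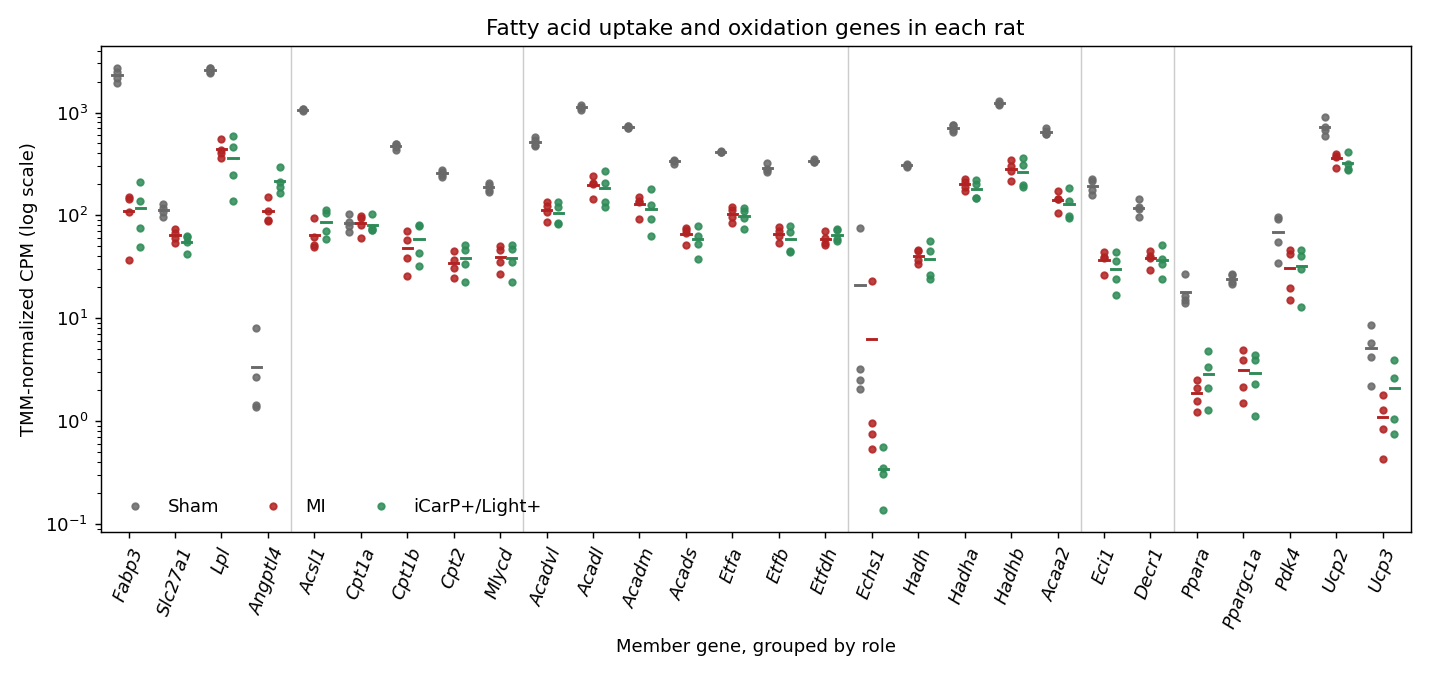
Level of each of the 28 members in each of the 12 rats, as TMM-normalized CPM on a log axis, with short bars at group means and grey lines between the 6 roles. Sham rats lie above the MI and iCarP+/Light+ rats for most members, Angptl4 has the opposite order, Cpt1a has the groups on top of each other, and Echs1 has 1 high rat in Sham and 1 in MI.

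Infarction was accompanied by a fall of nearly the whole list. In MI against Sham 25 of the 28 members were lower and 1, Angptl4, was higher at an adjusted p below 0.05 (edgeR quasi-likelihood test, Benjamini-Hochberg over 15101 genes). In all genes tested 33.6% were lower and 30.2% were higher. The median log2 fold change was -2.25 over the members and -0.06 over all genes. Cpt1a and Echs1 did not pass the test. Scaling by total counts alone, without a composition factor, moved the median of all genes from -0.06 to 0.52 on the log2 scale and left 23 members lower, with Slc27a1 and Pdk4 no longer called.

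**Figure D2:**
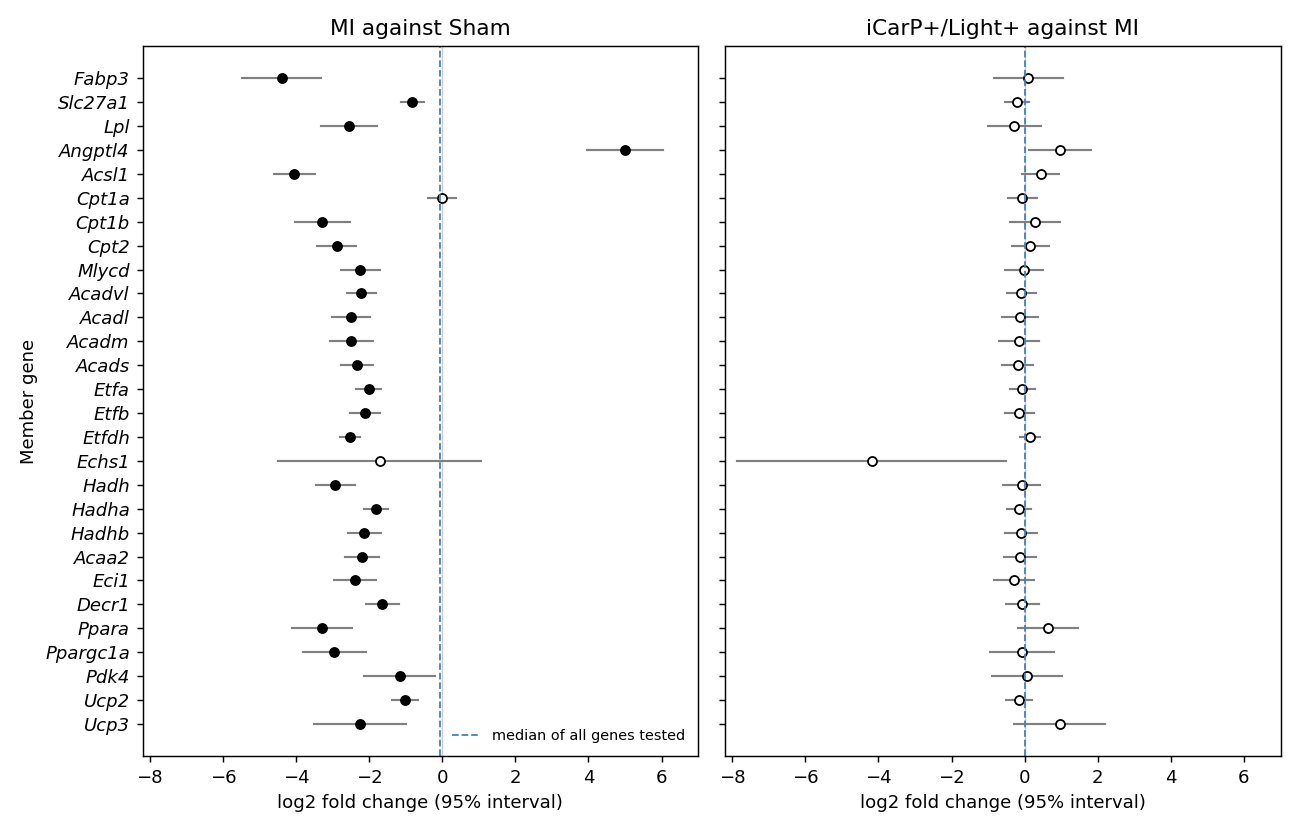
Log2 fold change of each member with its 95% interval, for MI against Sham at the left and iCarP+/Light+ against MI at the right, where filled points have an adjusted p below 0.05 and the dashed line is the median of all genes tested. In the left panel 25 members are filled and lie below 0, and in the right panel no member is filled.

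Of the members that act in fatty acid release at the vessel wall, uptake and transport through the cytosol, 3 fell and 1 rose. Fabp3, the heart-type fatty acid binding protein that carries fatty acids through the cytosol (ENSRNOG00000012879, chr5:148528725-148535565, plus strand, rn6), had the highest level per kb of the members in Sham, 3042 CPM per kb against 766 for the next, Acadl. Its levels were 2687, 2487, 2166 and 1944 CPM in Sham, 37.2, 144, 152 and 108 CPM in MI and 209, 139, 74.7 and 49.7 CPM in iCarP+/Light+. The highest infarcted rat, iCarP+/Light+ rat 1, was far below the lowest Sham rat, and MI rat 1 and iCarP+/Light+ rat 5 were the lowest of their groups. The log2 fold change in MI was -4.40 ± 0.50 (SE, n = 4 against 4, edgeR adjusted p = 6.78e-06), a 21.05-fold lower level. Zcchc17 overlaps Fabp3 on the opposite strand, with 7683 counts over the 12 rats against 144171 for Fabp3.

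Lpl, lipoprotein lipase, was at 2411, 2456, 2698 and 2707 CPM in Sham, 404, 359.9, 434 and 551 CPM in MI and 596, 459.7, 249 and 139 CPM in iCarP+/Light+. The infarcted groups overlapped each other and neither came near Sham. Lpl fell in MI by 5.87-fold (log2 fold change -2.55 ± 0.35, edgeR adjusted p = 3.42e-05). Slc27a1, the fatty acid transport protein FATP1, had the smallest fall of the 25 members called lower, from 96.2 to 129.7 CPM to 54.1 to 74.3 CPM, a 1.76-fold lower level (edgeR adjusted p = 2.98e-04).

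Angptl4 encodes a secreted inhibitor of lipoprotein lipase and went the other way (ENSRNOG00000007545, chr7:18627808-18634079, minus strand, rn6). Its levels were 1.37, 8.05, 1.44 and 2.65 CPM in Sham, 109, 149.8, 90.7 and 87.6 CPM in MI and 163, 187, 209 and 295 CPM in iCarP+/Light+. Every infarcted rat lay above every Sham rat, and every iCarP+/Light+ rat lay above every MI rat. The level in MI was 31.9-fold that in Sham (log2 fold change 5.00 ± 0.48, edgeR adjusted p = 1.70e-06). Sham rat 2 held the highest of the low Sham values, and without it the log2 fold change was 5.90. The inhibitor and its enzyme moved in opposite directions in the same libraries.

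A row outside the list, RGD1565355 (ENSRNOG00000040108, chr4:14001761-14249749, plus strand, rn6), is described in the table as similar to CD36, the fatty acid translocase. Its level was 472 to 563 CPM in Sham, 158 to 324 CPM in MI and 104 to 290 CPM in iCarP+/Light+. It was 2.32-fold lower in MI than in Sham (edgeR adjusted p = 0.00501), a call that was lost with total counts alone (log2 fold change -0.63). It is not counted with the members.

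Among the 5 genes of activation and carnitine transfer, 4 fell and 1, Cpt1a, did not pass, with a median log2 fold change of -2.89 over all 5. Acsl1, the main long-chain acyl-CoA synthetase of the heart, was at 1068, 1073, 1044 and 1085 CPM in Sham, 49.0, 94.1, 51.7 and 62.1 CPM in MI and 105, 113, 70.1 and 59.0 CPM in iCarP+/Light+. The Sham rats lay close together, and the highest infarcted rat, iCarP+/Light+ rat 2, was far below them. Its fall in MI was 16.6-fold (log2 fold change -4.05 ± 0.26, edgeR adjusted p = 9.44e-08). Cpt2, which rebuilds acyl-CoA inside the mitochondrion, fell 7.42-fold from 234 to 277 CPM to 24.6 to 45.4 CPM (edgeR adjusted p = 6.57e-07). Mlycd, malonyl-CoA decarboxylase, which removes the inhibitor of the carnitine step, fell 4.75-fold from 167 to 206 CPM to 26.8 to 49.9 CPM (edgeR adjusted p = 4.98e-06).

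The isoforms of carnitine palmitoyltransferase 1, the enzyme at the entry to the mitochondrion, parted. Cpt1b, the muscle isoform (ENSRNOG00000010438, chr7:130395194-130405347, minus strand, rn6), was at 494, 494, 431 and 460.3 CPM in Sham, 25.4, 70.9, 38.8 and 57.8 CPM in MI and 78.1, 80.7, 43.3 and 31.9 CPM in iCarP+/Light+, and fell 9.75-fold in MI (log2 fold change -3.29 ± 0.35, edgeR adjusted p = 3.45e-06). Cpt1a, the isoform of liver and many other cells (ENSRNOG00000014254, chr1:218569510-218629678, plus strand, rn6), was at 68.9, 102, 78.2 and 86.0 CPM in Sham, 94.7, 81.0, 60.8 and 98.6 CPM in MI and 71.3, 74.7, 71.5 and 104 CPM in iCarP+/Light+. The groups of Cpt1a overlapped fully, and the 95% interval of its log2 fold change in MI was -0.39 to 0.38 (edgeR adjusted p = 0.997). With total counts alone Cpt1a was higher in MI, with a log2 fold change of 0.58 (edgeR adjusted p = 0.0141). Chkb overlaps Cpt1b on the same strand, with 3586 counts over the 12 rats against 33299 for Cpt1b.

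Within each rat, the share of Cpt1a in the summed CPM per kb of both isoforms was 10.9, 15.3, 13.7 and 14.0% in the Sham rats, 76.5, 49.97, 57.8 and 59.9% in the MI rats and 44.4, 44.7, 59.1 and 74.1% in the iCarP+/Light+ rats. Cpt1a was thus the minor isoform in every Sham rat and at about the level of Cpt1b or above it in the infarcted rats. The log2 ratio of Cpt1a to Cpt1b was 3.38 higher in MI than in Sham (two-sided exact permutation test, 4 against 4 rats, p = 0.0286, the smallest this design can give) and 3.05 higher in iCarP+/Light+ than in Sham (exact permutation p = 0.0286). Adjusted over the 12 ratio comparisons made, both p-values were 0.114 by the exact permutation test. With this smallest p no adjusted value could pass unless most of the 12 comparisons reached it, so the adjusted values do not bear on whether the ratios differed. Between iCarP+/Light+ and MI the ratio differed by -0.33 (exact permutation p = 0.514).

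**Figure D3:**
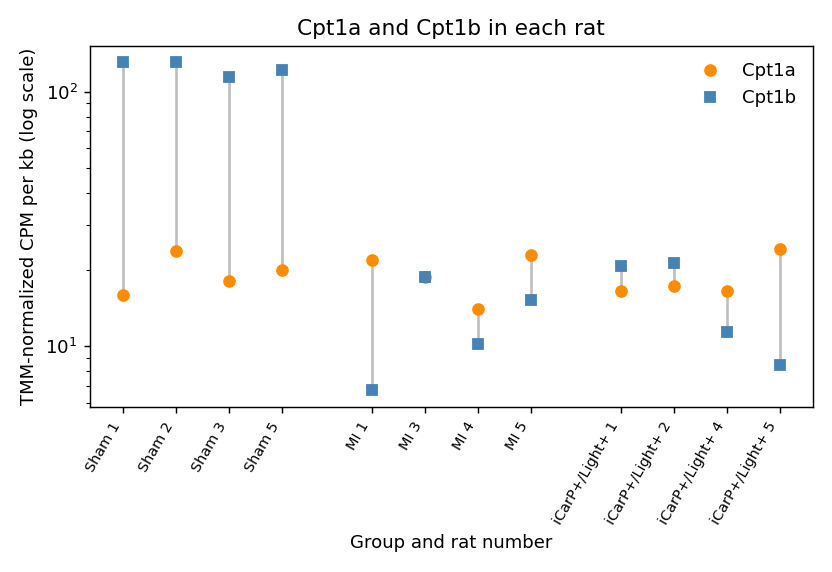
Cpt1a (circles) and Cpt1b (squares) in each rat as TMM-normalized CPM per kb on a log axis, with a grey line joining both isoforms of a rat. Cpt1b lies well above Cpt1a in the 4 Sham rats, whose Cpt1a shares are 10.9 to 15.3%, and a little above, beside or below it in the 8 infarcted rats, whose shares are 44.4 to 76.5%.

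The acyl-CoA dehydrogenases and the electron transfer flavoprotein system, which take the first electrons of each round to the respiratory chain, fell together. All 7 genes were lower in MI, with log2 fold changes from -2.52 to -2.01 and a median of -2.33. Acadl, the long-chain dehydrogenase of rodents, was at 1056, 1184, 1131 and 1112 CPM in Sham, 145, 242, 201 and 208 CPM in MI and 271, 204, 135 and 120.3 CPM in iCarP+/Light+. Acadm, the medium-chain enzyme, went from 707 to 736 CPM to 92.5 to 150.3 CPM, and Acads, the short-chain enzyme, from 316 to 345 CPM to 51.3 to 74.6 CPM. Acadvl, the very-long-chain enzyme whose promoter is shown above (ENSRNOG00000018114, chr10:56619303-56624526, minus strand, rn6), went from 475 to 580.1 CPM to 86.7 to 133 CPM. The falls of the 4 dehydrogenases lay between 4.63-fold for Acadvl and 5.63-fold for Acadl, with standard errors of 0.19 to 0.27 on the log2 scale.

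Etfdh, which hands the electrons to ubiquinone, had the smallest error of the members: 339, 350.1, 334 and 327 CPM in Sham, 51.5, 70.3, 59.9 and 53.8 CPM in MI and 71.2, 73.5, 59.4 and 56.1 CPM in iCarP+/Light+. It fell 5.73-fold (log2 fold change -2.52 ± 0.13, edgeR adjusted p = 3.96e-08). Etfa and Etfb, the subunits of the flavoprotein, fell 4.02-fold and 4.35-fold. Etfa was the least variable member in Sham, with a coefficient of variation of 0.744%. The within-rat log2 ratio of Etfa to Etfb differed between MI and Sham by 0.11 (exact permutation p = 0.343).

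Of the 5 genes of hydration, second dehydrogenation and thiolysis, 4 fell. Hadhb, the beta subunit of the trifunctional protein (ENSRNOG00000010800, chr6:27555412-27582995, minus strand, rn6), was at 1247, 1214, 1284 and 1188 CPM in Sham, 214, 342, 301 and 269.8 CPM in MI and 360.2, 309, 198 and 188 CPM in iCarP+/Light+. Hadha, the alpha subunit on the neighbouring stretch (ENSRNOG00000024629, chr6:27589657-27629175, plus strand, rn6), was at 752, 750.2, 641 and 669 CPM in Sham, 173, 226, 190.1 and 212 CPM in MI and 219, 204, 149 and 148 CPM in iCarP+/Light+. Both fell, Hadhb by 4.38-fold and Hadha by 3.51-fold. The within-rat ratio of Hadha to Hadhb was higher in MI than in Sham by 0.34 on the log2 scale (exact permutation p = 0.0286, adjusted 0.114), with the same limit on the adjusted value. In iCarP+/Light+ against Sham it was higher by 0.29 (exact permutation p = 0.0571), and iCarP+/Light+ rat 1 lay inside the Sham range. Hadh, the short-chain hydroxyacyl-CoA dehydrogenase, fell 7.59-fold and Acaa2, the mitochondrial thiolase, 4.60-fold.

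Echs1, the short-chain enoyl-CoA hydratase (ENSRNOG00000018522, chr1:212570195-212579057, minus strand, rn6), could not be read in the same way. It was at 2.53, 2.05, 75.8 and 3.17 CPM in Sham, 22.9, 0.539, 0.951 and 0.745 CPM in MI and 0.563, 0.302, 0.135 and 0.352 CPM in iCarP+/Light+. Sham rat 3 and MI rat 1 stood far above the other rats of their groups, and the other 10 rats were at 0.135 to 3.17 CPM. The log2 fold change in MI was -1.71 ± 1.28 (edgeR adjusted p = 0.259). It was 1.29 without Sham rat 3 and -4.79 without MI rat 1, so single rats set its direction. Paox overlaps Echs1 on the opposite strand and held 3429 counts over the 12 rats, more than the 1647 of Echs1, and whether the counting used the strand is not given in the sources used here.

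The auxiliary enzymes handle double bonds that the main cycle cannot. Eci1, an enoyl-CoA isomerase, was at 225, 218, 177 and 159 CPM in Sham, 26.3, 43.8, 39.4 and 38.6 CPM in MI and 44.4, 35.8, 24.0 and 16.7 CPM in iCarP+/Light+, and fell 5.26-fold in MI (edgeR adjusted p = 5.70e-06). Decr1, the dienoyl-CoA reductase, fell 3.11-fold, from 95.9 to 144 CPM to 29.3 to 45.0 CPM (edgeR adjusted p = 1.86e-05).

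All 5 genes of regulation, pyruvate control and uncoupling were lower in MI. Ppara (ENSRNOG00000021463, chr7:126619196-126681752, plus strand, rn6) was at 14.9, 14.1, 27.1 and 16.6 CPM in Sham, 1.58, 2.10, 1.23 and 2.50 CPM in MI and 3.38, 4.77, 1.29 and 2.11 CPM in iCarP+/Light+. Ppargc1a, which encodes PGC-1α, was at 26.8, 22.3, 26.0 and 21.4 CPM in Sham, 1.48, 3.94, 2.13 and 4.95 CPM in MI and 3.94, 4.41, 2.30 and 1.13 CPM in iCarP+/Light+. Neither regulator had an infarcted rat inside the Sham range. Ppara fell 9.76-fold (log2 fold change -3.29 ± 0.38, edgeR adjusted p = 7.63e-06) and Ppargc1a 7.72-fold (edgeR adjusted p = 3.17e-05).

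Pdk4, a kinase that inhibits the pyruvate dehydrogenase complex and so holds back the oxidation of pyruvate, varied widely, with 34.7, 92.8, 55.3 and 95.3 CPM in Sham, 19.8, 46.5, 15.0 and 42.4 CPM in MI and 40.2, 45.5, 12.8 and 29.96 CPM in iCarP+/Light+. Its groups overlapped, since Sham rat 1 lay below 2 of the MI rats. The call in MI (log2 fold change -1.17 ± 0.44, edgeR adjusted p = 0.0345) was lost in 5 of the 12 fits that left out 1 rat, namely those without MI rat 1, MI rat 4, iCarP+/Light+ rat 5, Sham rat 2 or Sham rat 5, where the log2 fold change ran from -1.06 to -0.93. Ucp2, an uncoupling protein also found in immune cells, was at 729.6, 909, 590.2 and 678 CPM in Sham and 377, 290.0, 373 and 392 CPM in MI, a 2.03-fold lower level (edgeR adjusted p = 1.45e-04). Ucp3, the muscle uncoupling protein that lies beside Ucp2 on chromosome 1, was far less abundant, with 2.17, 8.60, 5.69 and 4.20 CPM in Sham and 0.431, 1.78, 0.839 and 1.28 CPM in MI (log2 fold change -2.25 ± 0.58, edgeR adjusted p = 0.00402). The within-rat ratio of Ucp2 to Ucp3 had no exact permutation p below 0.114 in the 3 comparisons.

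The comparison of iCarP+/Light+ with MI asks whether the lit patch with algae was accompanied by another level of these genes in the infarct. At an adjusted p below 0.05 no member was higher and none was lower (0 and 0 of 28, edgeR), while in all genes tested 11.6% were higher and 2.01% were lower. At an unadjusted p below 0.05 there were 2 members, Angptl4 and Echs1. DESeq2 called 0 members and limma-voom 1, Angptl4. With total counts alone 1 member, Slc27a1, was lower, and the median of all genes was -0.25. The median log2 fold change was -0.08 over the members and 0.01 over all genes, with 19 members below 0 and 9 above.

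The intervals show how far this goes. Leaving Echs1 aside, the 95% interval of 21 of 27 members lay within a 2-fold change in either direction. The matching share of all genes tested was not worked out, so this count does not set the members apart from other genes. The interval was -0.62 to 0.37 for Acadl, -0.48 to 0.16 for Hadha and -0.12 to 0.41 for Etfdh on the log2 scale. The intervals were wider for Fabp3, at -0.85 to 1.05, Ppara, at -0.17 to 1.46, and Ucp3, at -0.30 to 2.21. A rise of Acsl1 of 0.44 on the log2 scale had the interval -0.06 to 0.94 and did not pass (edgeR adjusted p = 0.263).

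Angptl4 was the member with the clearest separation between the infarcted groups, at 87.6 to 149.8 CPM in MI and 163 to 295 CPM in iCarP+/Light+ with no overlap. Its log2 fold change was 0.97 ± 0.39, with the interval 0.12 to 1.82, and it missed the threshold (edgeR adjusted p = 0.137). It passed with limma-voom (adjusted p = 0.0170), in a fit of only the compared groups (edgeR adjusted p = 0.0261) and without Sham rat 2 (edgeR adjusted p = 0.0156). Sham rat 2 belongs to neither of the compared groups. Angptl4 did not pass with DESeq2 or in the fit with a replicate block. Lpl, the enzyme it inhibits, had 2 iCarP+/Light+ rats below every MI rat and 1 above every MI rat.

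The iCarP+/Light+ rats differed more among themselves than the rats of the other groups did. The median coefficient of variation over the members was 9.35% in the Sham rats, 19.8% in the MI rats and 33.2% in the iCarP+/Light+ rats. iCarP+/Light+ rat 1 was the highest of its group for 16 of the 28 members and rat 5 the lowest for 20. In MI, rat 1 was the lowest for 19 members and rat 3 the highest for 17. The same rats stood at the ends of the cardiomyocyte marker sum in MI, with 4462 CPM in rat 1 and 9118 CPM in rat 3, and in iCarP+/Light+, with 10538 CPM in rat 1 and 3951 CPM in rat 5.

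**Figure D4:**
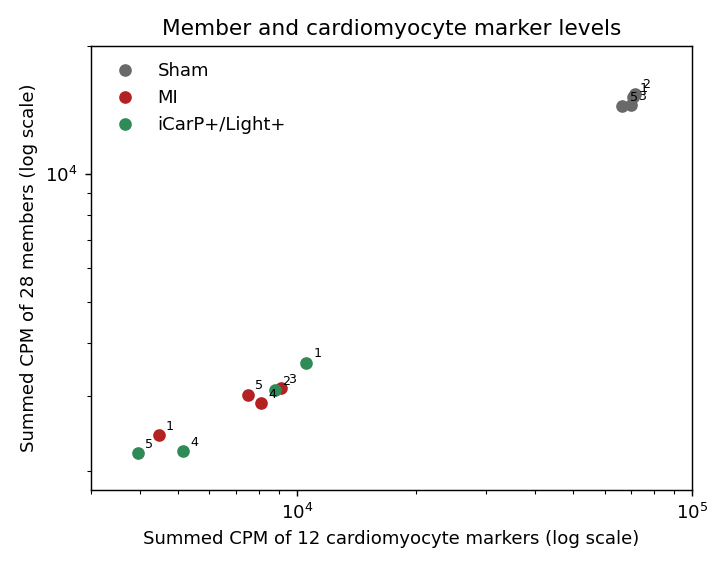
Summed CPM of the 28 members against summed CPM of 12 cardiomyocyte markers in each rat, both on log axes, with the rat number beside each point. The 4 Sham rats lie together at the upper right, and the 8 infarcted rats lie at the lower left, where MI rat 1 and iCarP+/Light+ rats 4 and 5 have the lowest marker sums.

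Summed over the 28 members, the level was 14876 ± 501 CPM (SD, n = 4) in Sham, 2866 ± 313 CPM in MI and 2777 ± 684 CPM in iCarP+/Light+. Set against the summed cardiomyocyte markers of the same rat, the members came to 0.207 to 0.216 CPM per marker CPM in the Sham rats, 0.344 to 0.543 in the MI rats and 0.341 to 0.557 in the iCarP+/Light+ rats. The sum of the members was thus a larger multiple of the marker sum in every infarcted rat than in any Sham rat. Single genes overlapped, since the median log2 fold change of the 12 markers in MI was -3.23 with a range of -4.73 to -1.94, and Fabp3, Acsl1, Cpt1b and Ppara lay below that median. This ratio is a description of these rats, and both sums come from the same libraries.

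Against Sham, iCarP+/Light+ had 25 members lower and 1, Angptl4, higher, with Cpt1a and Ucp3 not called. In all genes tested 33% were lower and 33.5% were higher. The median over the members was -2.35. This comparison shares its Sham rats with MI against Sham, so the values are given side by side and not as a second test. For Fabp3 the log2 fold change was -4.30 in iCarP+/Light+ and -4.40 in MI. For Acsl1 the values were -3.62 and -4.05, for Ppara -2.64 and -3.29, and for Angptl4 5.96 and 5.00. With 1 rat left out, Angptl4 ran from 5.71 to 6.87 in iCarP+/Light+ and from 4.74 to 5.90 in MI. Ucp3 missed the threshold in iCarP+/Light+ (log2 fold change -1.30 ± 0.55, edgeR adjusted p = 0.0536), and passed without iCarP+/Light+ rat 1, its highest rat (edgeR adjusted p = 0.0168). Echs1 was called lower (-5.90 ± 1.73, edgeR adjusted p = 0.00853) and lost the call without Sham rat 3, where the log2 fold change was -2.89 (edgeR adjusted p = 0.0664).

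A wider list of 84 genes of lipid handling outside the members, of which 82 were tested, gives the surroundings of these results. In MI against Sham 52 were lower and 13 were higher, with a median log2 fold change of -1.47, beside 33.6% lower and 30.2% higher in all genes tested. The falls covered 3 of 3 genes of ketone use, 9 of 11 other mitochondrial acyl-CoA dehydrogenases and beta-oxidation enzymes, 3 of 4 genes of the carnitine system, 7 of 9 peroxisomal genes, 5 of 6 of pyruvate dehydrogenase control, 6 of 8 of uptake and lipoprotein handling and 10 of 14 nuclear regulators, with 1 gene higher in each of the last 3. The other groups were mixed. Of 8 further genes of activation 4 were higher and 3 lower (median log2 fold change 0.32), of 6 genes of malonyl-CoA and fatty acid synthesis 3 were higher and 2 lower (median 0.42), and of 13 genes of the lipid droplet and lipolysis 3 were higher and 4 lower (median -0.07). With total counts alone 46 were lower and 25 were higher, where 2776 of all genes tested were lower and 7707 higher. The lowest log2 fold changes belonged to Perm1, a muscle regulator that acts with PGC-1α, at -5.46 ± 0.50, Acsl6, another acyl-CoA synthetase, at -5.29 ± 0.41, and Rxrg, a retinoid X receptor, at -4.80 ± 0.47. Perm1 went from 239 to 283 CPM in Sham to 2.01 to 10.6 CPM in MI. The highest among those with a mean of at least 5 CPM were Hilpda, an inhibitor of triglyceride lipolysis, at 2.51 ± 0.42, Plin2, a lipid droplet coat protein, at 2.51 ± 0.27, and Scd, a fatty acid desaturase, at 2.31 ± 0.35.

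In iCarP+/Light+ against MI, 15 of these 82 genes were higher and 1 was lower (edgeR adjusted p below 0.05), beside 11.6% higher and 2.01% lower in all genes tested and 0 of the 28 members. The median log2 fold change over the 82 was 0.09. With total counts alone 11 were higher and 9 lower, where 1204 of all genes tested were higher and 2722 lower. Of the 13 genes of the lipid droplet and lipolysis, 6 were higher: Plin2, Dgat2, G0s2, Hilpda, Abhd5 and Dgat1. G0s2, an inhibitor of adipose triglyceride lipase, was at 14.7, 17.9, 14.7 and 9.07 CPM in Sham, 13.5, 28.4, 31.6 and 15.1 CPM in MI and 196, 352, 448 and 600.2 CPM in iCarP+/Light+. Its log2 fold change over MI was 4.17 ± 0.39 (edgeR adjusted p = 1.94e-05).

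Dgat2, which makes the last step of triglyceride synthesis, was at 30.6, 52.4, 30.7 and 34.2 CPM in Sham, 82.8, 51.2, 78.6 and 64.5 CPM in MI and 656, 1295, 1346 and 1643 CPM in iCarP+/Light+, with a log2 fold change over MI of 4.16 ± 0.30 (edgeR adjusted p = 3.48e-06). Hilpda was at 3.47, 2.59, 1.82 and 2.06, 12.9, 17.1, 17.9 and 9.10 and 60.7, 113, 162 and 253 CPM in the same order of groups (3.37 ± 0.38, edgeR adjusted p = 7.11e-05). For all 3 genes every iCarP+/Light+ rat lay above every MI rat. These 3 genes kept their direction and their call under the 9 other settings and the 12 fits with 1 rat left out. The leukocyte markers moved between the same groups too, with 5 of 10 higher and 1 lower in iCarP+/Light+. Among them the neutrophil genes S100a9, S100a8 and Csf3r were 11.5-fold, 10.3-fold and 6.38-fold higher with no overlap (edgeR adjusted p = 6.20e-05, 7.18e-05 and 9.17e-05), or 3.53, 3.37 and 2.67 on the log2 scale beside the 3.37 of Hilpda, while Lyz2, the most abundant in MI, did not pass (log2 fold change -0.45). Of the 6 red blood cell markers 4 were higher and none was lower, with a median log2 fold change of 1.45 (Hba-a1 1.55, edgeR adjusted p = 0.00816). Of the 7 fibroblast markers 1, Dcn (decorin), was higher (log2 fold change 0.73, edgeR adjusted p = 0.0374), and the white adipocyte markers were at 12.7 to 45.5 and 25.5 to 45.9 CPM (Cfd, log2 fold change 0.77, edgeR adjusted p = 0.229). The part of these cell markers in the values was not tested.

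**Figure D5:**
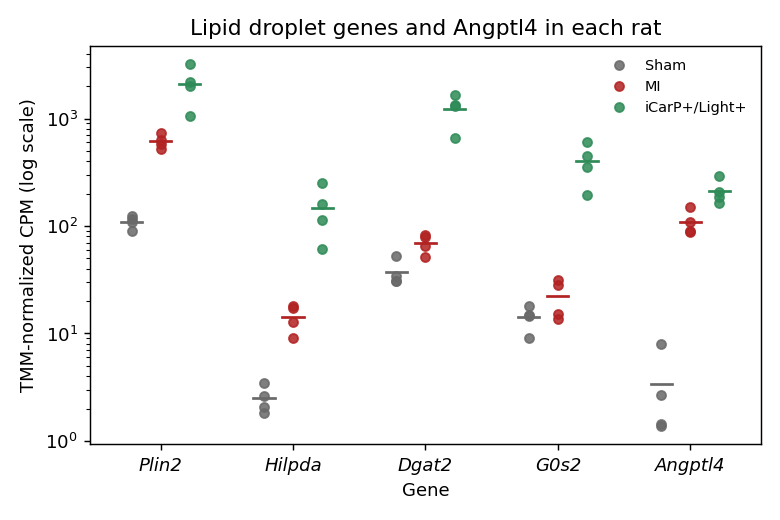
Level of Plin2, Hilpda, Dgat2 and G0s2, of the lipid droplet list, and of the member Angptl4 in each rat as TMM-normalized CPM on a log axis, with short bars at group means. For all 5 genes the 4 iCarP+/Light+ rats lie above the 4 MI rats, and Plin2, Hilpda and Angptl4 are also higher in every MI rat than in every Sham rat.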

How the data were processed

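Left-ventricular tissue of 12 rats was sequenced. According to the submitters' processing notes, the authors aligned the reads to rn6 with HISAT2 and counted them per gene with featureCounts (versions, annotation release and strand setting are not given in the sources used here), and the deposited raw read counts per gene are used here as they stand. Counts were tested with edgeR 4.0.16 (R 4.3.3): filterByExpr, TMM scaling, and a quasi-likelihood test in 1 fit of all 12 rats with a term for group (9 residual degrees of freedom), Benjamini-Hochberg over 15101 genes, threshold 0.05. Nothing in the labels names a batch. CPM are counts per 1000000 of the TMM-scaled library, and CPM per kb divides by the gene length in the table. Rats are taken as separate animals from their labels.

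The members and lists were chosen with earlier results of these data known. Pathway genes were named as the 3 highest and 3 lowest log2 fold changes among called genes with a mean of at least 5 CPM, in MI against Sham and in iCarP+/Light+ against MI. One gene that the rule named is not reported here. Within-rat ratios were tested by exact permutation. Intervals are 95% intervals of the edgeR fit. Alternatives were DESeq2 1.42.0, limma-voom (limma 3.58.1), other scalings, other filters, the mitochondrial genome left out, only the compared groups, a replicate block and each rat left out in turn. The pathway list was run through the same alternatives, chosen after seeing the data. Same-numbered rats of different groups had correlations of -0.15 to 0.065 in their deviations from the group means, so the numbers do not pair them. The scripts were tested on simulated data.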

Additional observations from a re-analysis of the deposited data

Results flagged for a closer look

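In 111 groups of 4 rats (the 28 members and 9 named pathway genes in 3 groups), 4 values stood apart from the rest of their group by Dixon's test on log2 CPM, where chance alone flags about 1 group in 20. Echs1 in Sham rat 3 was at 75.8 CPM against 2.05 to 3.17 CPM in the other Sham rats, a gap of 0.882 of the group's range. Echs1 in MI rat 1 was at 22.9 CPM against 0.539 to 0.951 CPM, with a gap of 0.861. Cpt1a in iCarP+/Light+ rat 5 was at 104 CPM against 71.3 to 74.7 CPM, with a gap of 0.877. Ucp2 in MI rat 3 was at 290.0 CPM against 373 to 392 CPM, with a gap of 0.836. The high Echs1 rats lie in different groups and decide the direction of that gene, as given above.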

How the results depend on the processing

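The 25 lower members of MI against Sham numbered 23 to 25 under the other settings and 24 to 25 with 1 rat left out, and the 25 of iCarP+/Light+ against Sham numbered 23 to 26 over both. Scaling by total counts alone shifted the median of all genes to 0.52, -0.25 and 0.33 in MI against Sham, iCarP+/Light+ against MI and iCarP+/Light+ against Sham, and the share of higher among all calls to 73.5, 30.7 and 64.7%, from 47.3, 85.2 and 50.3%. In iCarP+/Light+ against MI that share was 70.8% with DESeq2 and 72.4% for genes with at least 10 counts in every library. With total counts alone 2 members were higher in MI, since Cpt1a was added, and 1 member, Slc27a1, was lower in iCarP+/Light+ than in MI (log2 fold change -0.49). In the latter comparison 1 member, Angptl4, was higher with limma-voom, in the fit of only the compared groups and without Sham rat 2, and 1 member, Echs1, was lower without Sham rat 3, so each count ran from 0 to 1. Pathway genes higher in MI numbered 25 with total counts alone against 13. Pathway genes lower in iCarP+/Light+ than in MI numbered 9 with total counts alone and 3 with DESeq2, 0 with no low-count filter, in the fit of only the compared groups and in the replicate block, and 0 to 2 with 1 rat left out, against 1. The cause of these moves was not tested.

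In the fit with a replicate block, 24 members were lower in MI and 23 in iCarP+/Light+ against Sham, with 1 higher in each and none called in iCarP+/Light+ against MI. The block ended the calls of Pdk4 (log2 fold change -0.77 in MI) and of Echs1 and Pdk4 in iCarP+/Light+ against Sham (-4.10 and -0.75), and the numbers do not pair the rats.

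Changes of sign touched members that had not been called. Cpt1a in MI against Sham was at 0.069 with DESeq2 and with its size factors, 0.58 with total counts, 0.031 with no filter, 0.030 without the mitochondrial genome, 0.078 with at least 10 counts, 0.14 in only the compared groups, 0.11 in the block and -0.082 to 0.13 with 1 rat left out. In iCarP+/Light+ against Sham it was at 0.24 with total counts, 0.0045 in the block and -0.18 to 0.048 with 1 rat left out, and Echs1 in MI against Sham ran from -4.79 to 1.29. In iCarP+/Light+ against MI, total counts turned Fabp3 to -0.14, Cpt2 to -0.10, Etfdh to -0.12 and Pdk4 to -0.23, the filter of at least 10 counts turned Pdk4 to -0.0071, and the block turned Fabp3 to -0.047. With 1 rat left out, the values there ran from -0.28 to 0.026 for Cpt1a, -0.33 to 0.29 for Fabp3, -0.013 to 0.32 for Cpt2, -0.18 to 0.11 for Mlycd, -0.23 to 0.0052 for Acadvl, -0.15 to 0.017 for Etfa, -0.34 to 0.059 for Hadh, -0.28 to 0.019 for Hadhb, -0.28 to 0.023 for Decr1, -0.33 to 0.24 for Ppargc1a and -0.17 to 0.32 for Pdk4. The log2 ratio of Cpt1a to Cpt1b there ran from -0.72 to 0.0095 and that of Hadha to Hadhb from -0.10 to 0.026, and Ucp2 to Ucp3 in iCarP+/Light+ against Sham ran from -0.070 to 0.69.

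With 4 rats a group the exact permutation tests of ratios cannot go below p = 0.0286. Ucp3, Ppara, Ppargc1a, Echs1 and the pathway gene Acsl6 rest on few counts in infarcted tissue, and the pathway gene Scd on few counts in Sham.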
